A study of Mus musculus with 24 samples.

Results

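The chromatin remodelling complexes INO80 and TIP60-p400 were described through 10 of their subunit genes. Ino80, Ino80b, Ino80c, Actr5 and Actr8 encode subunits of INO80, and Ep400, Kat5, Trrap, Brd8 and Epc1 encode subunits of TIP60-p400. They were chosen by name and no measured value is part of the rule, but the choice was made with earlier results of these data known. They were found by symbol among 55414 counted genes. All 10 passed the filter on low counts in every fit.

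Both complexes remodel nucleosomes that hold the histone variant H2A.Z. SRCAP and p400 are the motors of the complexes that place H2A.Z into chromatin, and INO80 slides nucleosomes and has been linked to the removal of H2A.Z. TIP60-p400 also acetylates histones through KAT5 and takes part, like INO80, in the repair of DNA breaks. In mice, KAT5 and p400 are known to be needed for the upkeep of blood stem cells.

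RNA was sequenced from marrow cells. The donors were C57BL6/J mice that carried a mutation of Srcap, the gene of the SRCAP motor, and of wild-type (WT) mice. The 24 libraries formed 12 groups of 2, mutant and WT in each of 6 states. These were B cells and cells labelled T cells 2 weeks after transplantation, and hematopoietic stem and progenitor cells (HSPCs) in 4 conditions: 12 hours after intraperitoneal doxorubicin, a DNA-damaging drug, untreated, 2 weeks after transplantation, and 20 weeks after competitive transplantation, in which donor cells were isolated. Per the labels, the untreated HSPCs were of the germline kind. The file headers name some of the mutants het, but the labels give neither the kind of Srcap mutation, its zygosity nor the age of the mice. The extraction protocol names 30000 sorted HSPCs for every library, those of B and T cells included. The labels call the samples independent without saying that each came from its own mouse, so p-values measure only the spread between these libraries.

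Each library held 26369992 to 78432483 counted read pairs. Levels are given as scaled CPM, the usual count relative to library size, with each library total first multiplied by edgeR's TMM factor, which assumes that most genes do not differ between libraries. For levels the factors were computed over all 24 libraries. Each test recomputed TMM factors after the filter on low counts, within its own libraries, so levels and tested differences need not match exactly. Levels on plain library totals (plain CPM) are given beside the orders they change. Of 8 HSPC markers, Kit, the stem cell factor receptor, had 311 to 601 CPM in HSPC libraries and 3.74 to 5.93 CPM in B cells. The 8 summed to 0.129% to 0.352% of counts in HSPCs. They took 0.0160% to 0.0193% in B cells and 0.0126% to 0.01465% in libraries labelled T cells. Cd48 of this list did not separate the cells, at 129.5 to 162 CPM in B cells and 81.6 to 114 CPM in 20-week HSPCs. B-cell libraries had 1033 to 1352 CPM of Cd79a, part of the B-cell receptor, against 48.6 to 149 CPM in 2-week HSPCs. Cd79a had 155.5 to 273.5 CPM in doxorubicin, 159 to 257 in untreated and 281.5 to 352 in 20-week HSPCs. The HSPC libraries thus also held B-cell transcripts. The 4 libraries labelled T cells had only 0.0883 to 1.56 CPM of Cd3e, part of the T-cell receptor complex, and 20640 to 26150 CPM of S100a8, a granule protein gene of neutrophils. All 8 T cell markers were detected there but summed to 0.00135% to 0.00201% of counts, whereas 8 neutrophil markers took 12.3% to 14.4%. The same neutrophil list took 0.337% to 1.21% in B cells and 0.540% to 0.916% in 2-week HSPCs. The markers thus went against the label, and these 4 are called the libraries labelled T cells or the T label. Srcap itself had 2.82 to 18.9 scaled CPM in mutant and 6.09 to 19.3 scaled CPM in WT libraries. A mutation of unstated kind need not change its transcript level, so this checks no label, and 61.7% of the exonic bases of Srcap are shared with Gm42715 on the same strand, where counts are ambiguous.

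The motors are Ino80, the ATPase of its complex, and Ep400, the ATPase p400. They fell or rose in the same direction in several of the comparisons below. In others they parted, such as B cells against HSPCs, where only Ino80 of the motors was called. The 250 bases before their RefSeq gene starts are shown, on the GRCm38.p6 build and the minus strand, 5′ to 3′. The window of Ino80 is chr2:119477688-119477937 and that of Ep400 is chr5:110770718-110770967, and capitals mark the motif matches found.
Ino80: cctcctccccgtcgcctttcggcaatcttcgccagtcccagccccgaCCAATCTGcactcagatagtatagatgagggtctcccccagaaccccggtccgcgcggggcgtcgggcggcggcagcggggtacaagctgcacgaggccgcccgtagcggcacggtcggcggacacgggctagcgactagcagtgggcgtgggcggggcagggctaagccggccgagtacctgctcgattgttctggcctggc
Ep400: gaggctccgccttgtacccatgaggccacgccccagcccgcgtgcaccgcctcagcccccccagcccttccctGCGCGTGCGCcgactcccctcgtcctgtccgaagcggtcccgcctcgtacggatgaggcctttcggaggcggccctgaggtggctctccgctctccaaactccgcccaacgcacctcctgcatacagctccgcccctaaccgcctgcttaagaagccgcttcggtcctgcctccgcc
Both windows are rich in CG dinucleotides, with 28 in Ino80 and 25 in Ep400 against a median of 6 over 32851 windows of the same length. The Ino80 window holds a CCAAT match (CCAATNNG) that starts 203 bases before the gene start, a motif found in 12.7% of all windows. The Ep400 window holds a match to the NRF1 motif that starts 177 bases before it, found in 3.74% of all windows. Neither window matched the YY1 motif (AANATGGC, in 3.91% of windows), the ETS motif (CCGGAAG, 6.91%) or the E-box (CACGTG, 6.02%). Both strands were searched, and these are matches of letters only. Of the 10 genes, 5 were in the table of gene starts (Ino80, Ino80b, Ep400, Kat5 and Trrap).

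Per kilobase of exon, the levels of the subunits differed several-fold within every state. In untreated HSPCs Ino80c had 16.8 scaled CPM per kb, Ep400 14.7, Brd8 and Epc1 14.1 each, Ino80 11.4, Kat5 11.3, Ino80b 7.21, Trrap 6.53, Actr5 4.13 and Actr8 3.57. Actr8 and Actr5, which encode the nuclear actin-related proteins ARP8 and ARP5 of INO80, were the lowest of the 10 per kb in all 6 states, Actr8 below Actr5. Across the 24 libraries the largest span within one gene was that of Brd8, at 4.21-fold between the lowest and highest library, and the smallest was that of Actr8, at 1.69-fold. Actr5 spanned 3.52-fold, Epc1 3.41-fold, Kat5 3.02-fold, Ino80 2.80-fold, Trrap 2.77-fold, Ep400 2.37-fold, Ino80c 2.08-fold and Ino80b 2.01-fold. Even the lowest count of a subunit in any library, 454 read pairs for Ino80b, was far above the filter.

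In the GENCODE M28 annotation on GRCm39, Ino80 lies on the minus strand at chr2:119203523-119308168, Ino80b at chr6:83098746-83102412, Ino80c at chr18:24237814-24255010, Actr5 at chr2:158466808-158481131 and Actr8 at chr14:29700294-29728311. Of the other complex, Ep400 lies on the minus strand at chr5:110812239-110918583, Kat5 at chr19:5653042-5660265, Trrap at chr5:144704542-144796588, Brd8 at chr18:34731668-34757654 and Epc1 at chr18:6435951-6516108. Counts were taken over exons of these genes. The same-strand overlap with other genes was 8 bases in Actr5, 119 bases in Ep400 and 83 bases in Epc1, and 0 in the other 7.

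**Figure D1:**
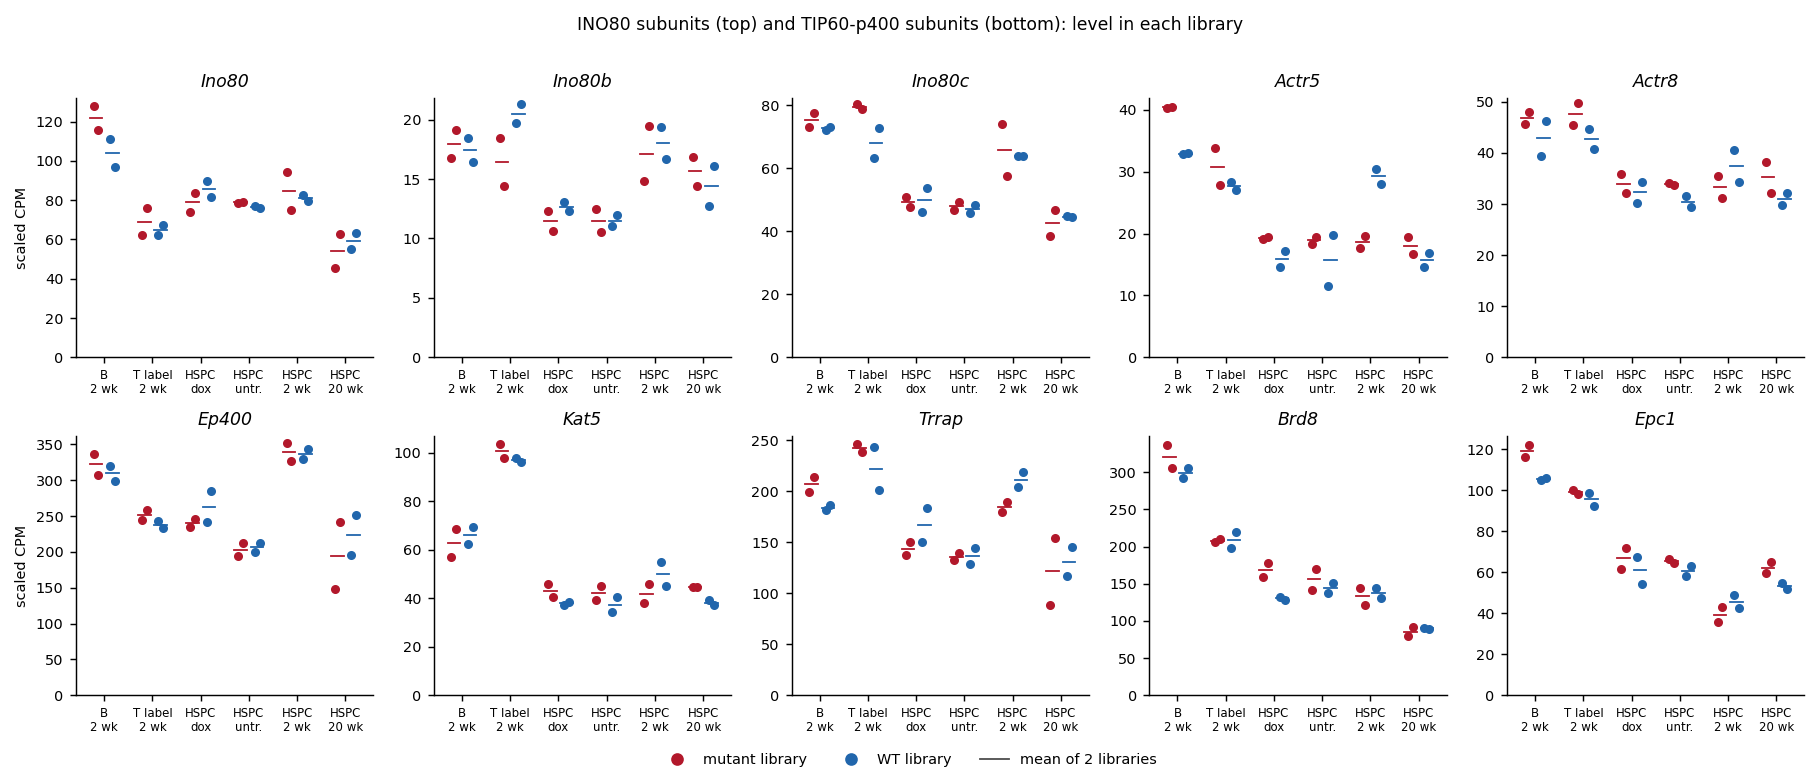
Scaled CPM of the 10 subunit genes (y axis, from 0) in each of the 24 libraries, in 6 states along the x axis with the 2 mutant libraries left of the 2 WT libraries. Points are libraries and bars the mean of 2; Brd8 and Epc1 were highest in B cells, Kat5 in the libraries labelled T cells and Ep400 in 2-week HSPCs and B cells on this scale (Kat5 under the T label and in B cells overlapped on plain CPM), and mutant and WT points lay close together in most states.

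The order of the 6 states differed from subunit to subunit. Brd8, a bromodomain protein of TIP60-p400, averaged 310.2 ± 18.4 scaled CPM in B cells, 209 ± 8.87 under the T label, 149.7 ± 23.6 in doxorubicin HSPCs, 150.1 ± 14.6 in untreated HSPCs, 136 ± 11.4 in 2-week HSPCs and 88.0 ± 5.55 in 20-week HSPCs (SD, n = 4 libraries each, 2 of them mutant). The 4 B-cell libraries lay above all others, the 4 libraries labelled T cells next, and the 4 20-week HSPC libraries below all others, while doxorubicin, untreated and 2-week HSPCs overlapped. Kat5, the acetyltransferase TIP60, averaged 64.4 ± 5.84 scaled CPM in B cells, 98.8 ± 3.22 under the T label and 39.7 ± 4.46 to 45.9 ± 6.996 in the 4 HSPC conditions (SD, n = 4 each). Its T-label libraries were separate from and above the B cells, these were separate from and above all HSPCs, and the 4 HSPC conditions overlapped. Epc1, a scaffold protein that holds KAT5 to its nucleosome-acetylating module, averaged 112 ± 8.38 scaled CPM in B cells and 97.3 ± 3.37 under the T label, and among HSPCs it was lowest 2 weeks after transplantation, at 42.5 ± 5.39 (SD, n = 4 each). Ep400 averaged 338 ± 11.9 scaled CPM in 2-week HSPCs and 316 ± 16.3 in B cells, whose libraries overlapped, and 205 ± 9.29 in untreated HSPCs at the low end. Trrap, the large scaffold that binds transcription factors, was highest under the T label at 232 ± 21.2 scaled CPM, which overlapped 2-week HSPCs and B cells. Ino80 averaged 113 ± 12.8 scaled CPM in B cells, above every other library, and 56.7 ± 8.35 in 20-week HSPCs at the low end. Ino80b, Ino80c, Actr5 and Actr8 had no state at the top that was separate from the next one down.

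The place of the T label in these orders depended on the scale. On plain CPM, Kat5 averaged 67.9 ± 6.31 in B cells and 64.0 ± 1.86 under the T label (SD, n = 4 each), and the 2 overlapped. Trrap averaged 150.4 ± 11.7 plain CPM under the T label, below B cells (206 ± 15.9), untreated HSPCs (159 ± 7.21), doxorubicin HSPCs (181 ± 21.3) and 2-week HSPCs (227 ± 19.2). Brd8 averaged 135 ± 9.28 plain CPM and Epc1 63.1 ± 2.46 under the T label, both below untreated HSPCs at 176 ± 17.97 and 73.7 ± 4.77. The lowest means of Ep400, Ino80, Ino80b and Actr8 were those of the T label on this scale. Ep400 averaged 159 ± 6.25 plain CPM there, against 194 ± 31.5 in 20-week and 239 ± 9.72 in untreated HSPCs. Ino80 averaged 43.4 ± 4.30 plain CPM there, against 52.8 ± 4.71 in 20-week HSPCs. B cells kept the highest mean of Brd8, Epc1 and Ino80 on both scales, 20-week HSPCs the lowest mean of Brd8, and 2-week HSPCs the lowest mean of Epc1.

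B cells were compared with HSPCs of the same time point to ask how the subunits differ between a lymphoid cell type and stem and progenitor cells. Of the 10 subunits, 6 were higher in B cells and none was lower in edgeR's quasi-likelihood test with Benjamini-Hochberg adjustment over all genes, at 0.05. In this comparison 53.9% of 19018 genes were called, 28.3% as higher and 25.5% as lower. The median log2 difference of the 10 was 0.40, against 0.06 over all genes. The largest differences were in TIP60-p400 subunits. Epc1 had 116, 122, 105 and 106 scaled CPM in the 2 mutant and 2 WT B-cell libraries, against 35.8, 42.9, 49.0 and 42.4 scaled CPM in the HSPC libraries in the same order. Every B-cell library lay far above any HSPC library, and the log2 difference was 1.41 ± 0.09 (SE, adjusted p = 1.65e-08). Brd8 had 336, 306, 292.5 and 306 scaled CPM in the same B-cell libraries, against 145, 122, 145 and 130.5 in HSPCs. The groups did not overlap, and the log2 difference was 1.20 ± 0.09 (adjusted p = 4.55e-08). Kat5 rose by 0.50 ± 0.11 on the log2 scale (adjusted p = 0.00117). In bulk libraries, fewer cells of a type and less RNA per cell cannot be told apart.

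Among INO80 subunits, 3 of 5 rose in B cells. Actr5 had 40.3, 40.5, 32.9 and 32.9 scaled CPM in B cells, against 17.6, 19.6, 30.5 and 28 in HSPCs. The lowest B-cell library was just above the highest HSPC library, and the log2 difference was 0.65 ± 0.11 (adjusted p = 0.000224). The motor Ino80 had 128, 116, 111 and 97.1 scaled CPM in B cells, against 94.2, 74.9, 82.5 and 79.7 in HSPCs, a log2 difference of 0.45 ± 0.10 (adjusted p = 0.00213). Actr8 differed by 0.35 ± 0.11 (adjusted p = 0.0138), a call that was lost without WT B-cell library 2 (0.29), without mutant B-cell library 2 (0.32) or without WT HSPC library 2 (0.29). Ino80b, which codes for the subunit IES2, differed by 0.01 ± 0.16 and Ino80c, which codes for IES6, by 0.20 ± 0.10, neither past the threshold. Nor did the motor Ep400, with a log2 difference of -0.09 ± 0.08, or the scaffold Trrap, with -0.01 ± 0.09. Without mutant HSPC library 1, Ino80c was also called (0.29, adjusted p = 0.0160). Markers of red cell precursors moved with the B-cell label, at 0.704% to 1.86% of counts in B cells against 0.0264% to 0.115% in HSPCs for a list of 8 genes, all of which were detected. Their part in these differences was not tested.

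The libraries labelled T cells were set against the same HSPCs. Of the 10 subunits 6 were higher and 2 lower, where 61.9% of 19018 genes were called, 32.6% as higher and 29.3% as lower. Over the 10 subunits the median log2 difference was 0.29, against 0.03 over all genes. Kat5 had 103, 97.9, 97.9 and 95.9 scaled CPM under the T label, against 38.0, 45.7, 55.0 and 44.9 in HSPCs, with wide space between the groups. Its log2 difference was 1.13 ± 0.11 (adjusted p = 3.55e-07), and that of Epc1 was 1.21 ± 0.09 (adjusted p = 3.50e-08), from 99.9, 98.2, 98.7 and 92.3 scaled CPM under the T label. Brd8 had 206.5, 209.7, 198 and 219.8 scaled CPM there, a log2 difference of 0.64 ± 0.09 (adjusted p = 1.57e-05). The motors went the other way. Ep400 had 245, 258, 243 and 233 scaled CPM under the T label, against 352, 327, 329 and 343.5 in HSPCs, and fell by 0.45 ± 0.08 on the log2 scale (adjusted p = 0.000197). Ino80 had 62.1, 76.0, 62.2 and 67.4 scaled CPM under the T label, of which 1 library overlapped the HSPCs, and its log2 difference was -0.29 ± 0.10 (adjusted p = 0.0250). Actr8 (0.37 ± 0.11), Actr5 (0.34 ± 0.11) and Trrap (0.25 ± 0.09) were called higher, at adjusted p-values of 0.00825, 0.0184 and 0.0213. The mean of Actr5 was higher under the T label in mutant libraries only, at 30.8 against 18.6 scaled CPM in HSPCs. In WT libraries it was 27.6 under the T label against 29.2 in HSPCs.

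How the libraries were scaled decides the direction of 4 of these 8 calls. Computed over all 24 libraries, the scaling factors of the libraries labelled T cells were 0.614 to 0.676, against 1.12 to 1.19 in 2-week HSPCs. With plain library totals the median of all genes moved to -0.79, and the split of all called genes changed to 3726 higher and 8799 lower, against 6193 higher and 5571 lower with scaling. On that scale Brd8 (-0.20), Actr8 (-0.47), Actr5 (-0.50) and Trrap (-0.59) were lower under the T label. Epc1 (0.37) and Kat5 (0.29) stayed above 0, and Ep400 (-1.29) and Ino80 (-1.13) stayed below, so Epc1 and Kat5 against Ep400 and Ino80 is the contrast that holds on either scale. The neutrophil list, all 8 genes detected, took 12.3% to 14.4% of counts under the T label against 0.540% to 0.916% in HSPCs. The 8 red cell precursor markers, all detected, took 0.325% to 1.07% under the T label against 0.0264% to 0.115% in HSPCs. The part of either list in these differences was not tested. Without WT T-label library 1 or without mutant T-label library 1, 5 of the 10 subunits were called, 4 higher and 1 lower. The calls of Ino80, Actr5 and Trrap were then lost, at -0.26, 0.32 and 0.18 without the WT library and at -0.22, 0.27 and 0.24 without the mutant library. Leaving out WT HSPC library 1 ended the calls of Ino80 (-0.28) and Trrap (0.23), mutant HSPC library 1 those of Ino80 (-0.21) and Actr5 (0.30), WT HSPC library 2 those of Actr5 and Actr8 (0.31 each), and mutant T-label library 2 that of Trrap (0.25). Without mutant HSPC library 1, Ino80c was called as well (0.29, adjusted p = 0.0142).

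B cells were also set directly against the T label in a fit of these 8 libraries. Of the 10 subunits 5 were higher and 2 lower in B cells, where 60.0% of 17484 genes were called, 31.2% as higher and 28.8% as lower. The 10 had a median log2 difference of 0.11, against 0.17 over all genes. Ino80 was higher by 0.75 ± 0.09 (adjusted p = 6.58e-06), Brd8 by 0.57 ± 0.07 (9.46e-06) and Ep400 by 0.37 ± 0.07 (0.000515), and for each the 4 B-cell libraries lay above all 4 of the T label. Kat5 had 57.0, 68.7, 62.4 and 69.4 scaled CPM in B cells, against the 95.9 to 103 scaled CPM of the T label given above, and its log2 difference was -0.62 ± 0.09 (adjusted p = 2.54e-05). Trrap had 199, 214, 181 and 186 scaled CPM in B cells, against 246, 238.5, 243 and 201 under the T label, a log2 difference of -0.25 ± 0.08 (adjusted p = 0.0139), with 1 library of the T label inside the range of the B cells. With plain library totals the median of all genes was 0.87 and all called genes split into 9249 higher and 3155 lower, against 5450 higher and 5037 lower with scaling. Kat5 (0.08) and Trrap (0.45) were then on the other side of 0. The calls of Actr5 (0.32 ± 0.11, adjusted p = 0.0185) and Epc1 (0.20 ± 0.07, adjusted p = 0.0238) depended on single libraries. That of Actr5 was lost without WT T-label library 1 (0.30) or 2 (0.28) or mutant T-label library 2 (0.22). That of Epc1 was lost without any one of the 4 T-label libraries (0.15 to 0.19) or without mutant B-cell library 2 (0.20), and that of Trrap without mutant B-cell library 1 (-0.20).

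**Figure D2:**
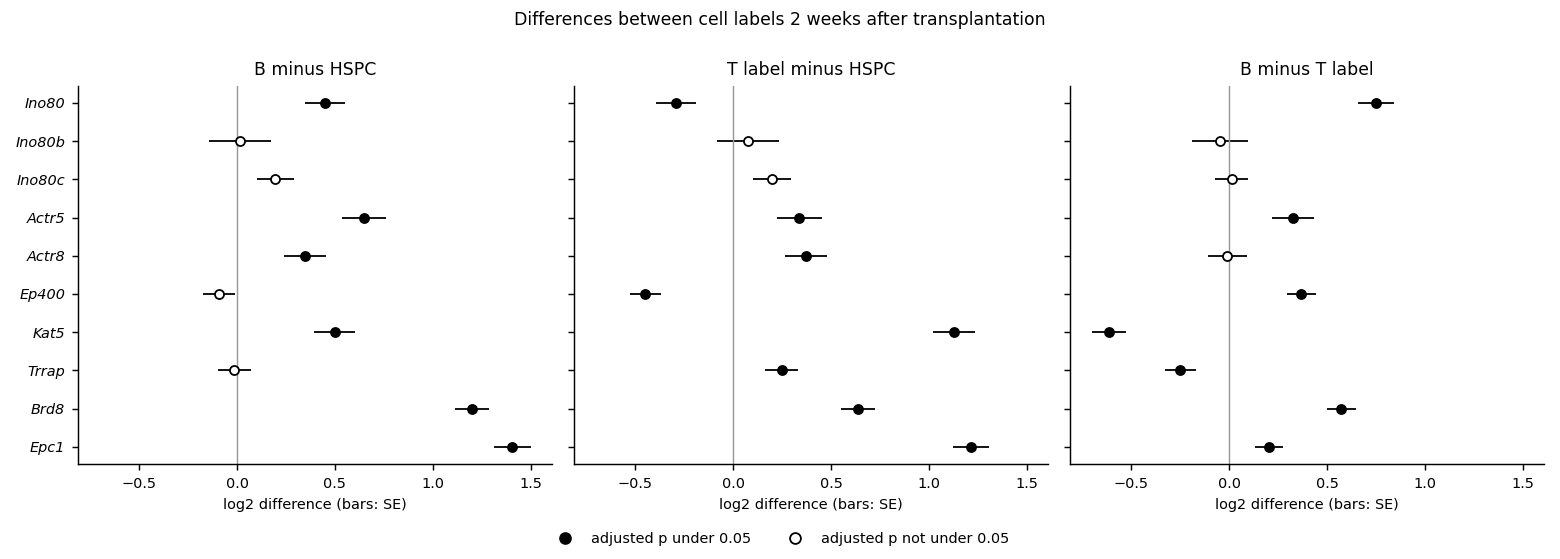
Log2 difference with its SE (x axis) for each of the 10 subunits (rows) between B cells and HSPCs, the T label and HSPCs, and B cells and the T label, all 2 weeks after transplantation, 4 libraries a side. Filled points passed an adjusted p of 0.05; Epc1 and Brd8 lay farthest right for B cells, Epc1 and Kat5 for the T label, where Ep400 and Ino80 lay left of 0.

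A ratio of 2 genes within a library does not depend on how that library was scaled. The counts per kb of exon of each subunit were therefore set against those of Ep400; these ratios were chosen after the values above had been seen and carry no test. Kat5 stood at 1.51 to 1.68 times Ep400 in the libraries labelled T cells, against 0.675 to 0.925 in B cells and 0.430 to 0.666 in 2-week HSPCs. These 3 ranges did not overlap. The other HSPCs overlapped B cells, at 0.6825 to 0.846 in untreated, 0.537 to 0.774 in doxorubicin and 0.588 to 1.20 in 20-week HSPCs. Epc1 stood at 1.02 to 1.24 times Ep400 in B cells and 1.19 to 1.27 under the T label. It stood at 0.318 to 0.465 in 2-week, 0.909 to 1.06 in untreated and 0.596 to 0.916 in doxorubicin HSPCs. In 20-week HSPCs it was 0.645 to 1.26, which overlapped both B cells and the T label. Brd8 was 1.20 to 1.35 times Ep400 in B cells, 1.07 to 1.24 under the T label, 0.903 to 1.06 in untreated, 0.490 to 0.579 in 2-week and 0.466 to 0.708 in 20-week HSPCs. A ratio also moves with Ep400 itself. From untreated to 2-week HSPCs the mean of Ep400 went from 205 to 338 scaled CPM, and that of Brd8 from 150 to 136. Trrap stood at 0.577 to 0.673 times Ep400 under the T label, and at 0.341 to 0.466 in B cells and all HSPC conditions. Ino80 relative to Ep400 was 0.668 to 0.781 in B cells and 0.520 to 0.605 under the T label, against 0.471 to 0.550 in 2-week and 0.732 to 0.833 in untreated HSPCs. The subunits of one complex thus did not keep one proportion of transcripts to each other across these cells.

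**Figure D3:**
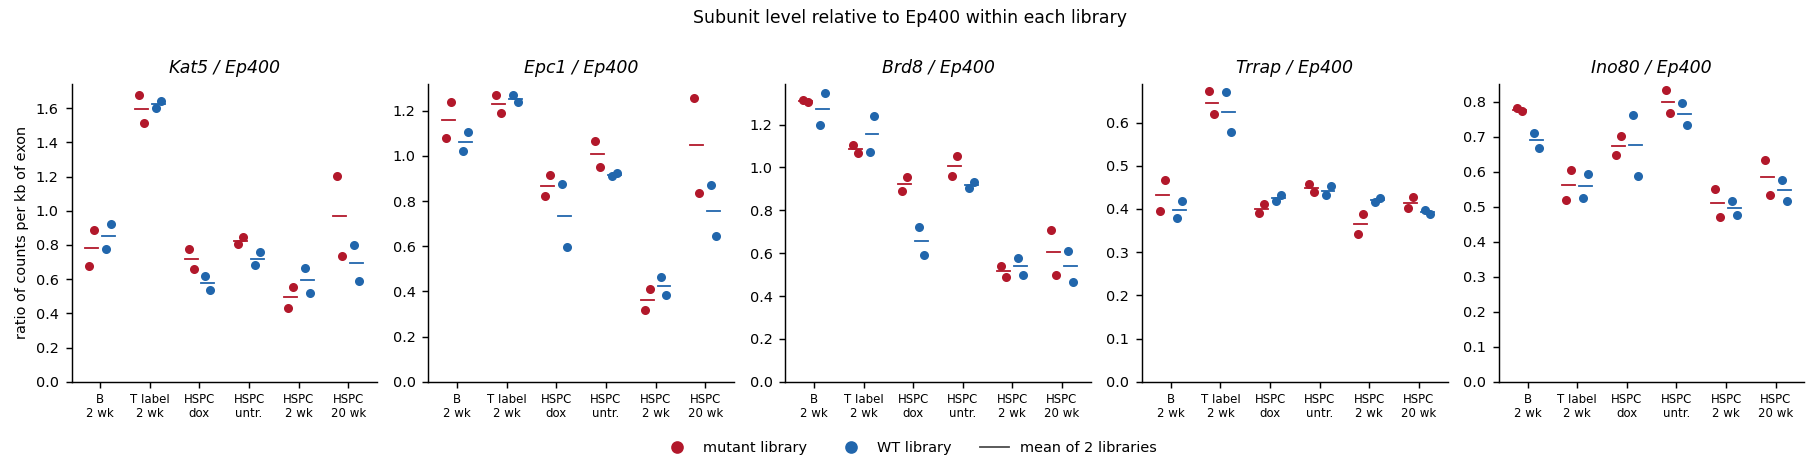
Ratio of the counts per kb of exon of 5 subunits to those of Ep400 (y axis, from 0) within each library, by state, mutant left of WT; points are libraries, bars the mean of 2. The ratio of Kat5 stood at 1.51 to 1.68 under the T label and below 1 in all but 1 of the other libraries. That of Epc1 was low in 2-week HSPCs (0.318 to 0.465), and that of Brd8 in 2-week (0.490 to 0.579) and 20-week HSPCs (0.466 to 0.708). Ep400, the denominator, had its highest mean in 2-week HSPCs.

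Untreated HSPCs were compared with HSPCs after transplantation. Between 2-week and untreated HSPCs, 5 of the 10 were higher and 1 was lower, where 46.1% of 19522 genes were called, 21.2% as higher and 24.9% as lower. Their median log2 difference was 0.38, against -0.14 over all genes. Ep400 had 194, 212, 199.5 and 213 scaled CPM in untreated HSPCs and 352, 327, 329 and 343.5 in 2-week HSPCs, mutant libraries first. All 2-week libraries lay far above the untreated ones, and the log2 difference was 0.78 ± 0.13 (adjusted p = 4.71e-05). Trrap had 133, 139, 129 and 144 scaled CPM in untreated HSPCs and 179, 189.9, 204 and 218.5 in 2-week HSPCs, again without overlap, with a log2 difference of 0.60 ± 0.13 (adjusted p = 0.00113). Of INO80, Ino80b was higher by 0.67 ± 0.16 (adjusted p = 0.00195), Ino80c by 0.51 ± 0.11 (0.000623) and Actr5 by 0.50 ± 0.16 (0.0132). Ino80 itself differed by 0.15 ± 0.11 (adjusted p = 0.280). From untreated to 2-week HSPCs, the mean of Actr5 went from 15.7 to 29.2 scaled CPM in WT libraries. In mutant libraries it went from 18.9 to 18.6. The call of Actr5 was lost without WT untreated library 1 (0.33) or mutant untreated library 1 (0.48). Epc1 was the subunit that fell: it had 66.2, 64.5, 58.1 and 63.1 scaled CPM in untreated HSPCs and 35.8, 42.9, 49.0 and 42.4 in 2-week HSPCs, a log2 difference of -0.51 ± 0.11 (adjusted p = 0.000827). Kat5 differed by 0.27 ± 0.11 (adjusted p = 0.0636), which passed without mutant 2-week library 1 (0.31). Actr8 (0.19 ± 0.12) and Brd8 (-0.09 ± 0.10) did not pass.

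From 2 to 20 weeks most of these differences ran in the opposite direction. Of the 10 subunits 1 was higher and 6 were lower at 20 weeks, where 42.0% of genes were called, 23.0% as higher and 19.0% as lower. The median log2 difference of the 10 was -0.53, against 0.07 over all genes. Ep400 had 148, 242, 196 and 252 scaled CPM at 20 weeks and Trrap 88.8, 154, 117 and 146, both below every 2-week library. Their log2 differences were -0.72 ± 0.13 (adjusted p = 0.000139) and -0.67 ± 0.13 (0.000458). The first of these libraries, mutant 20-week library 1, held the lowest level of Ep400, Trrap, Ino80, Ino80c and Brd8 among all 24. Brd8 had 79.8, 91.8, 91.1 and 89.2 scaled CPM at 20 weeks, with a log2 difference of -0.65 ± 0.10 (adjusted p = 4.07e-05). Ino80c (-0.59 ± 0.11), Ino80 (-0.57 ± 0.11) and Actr5 (-0.49 ± 0.16) were lower too, at adjusted p-values of 0.000170, 0.000356 and 0.0162. The mean of Actr5 went from 29.2 to 15.7 scaled CPM in WT libraries, and from 18.6 to 18.1 in mutant ones. The call of Actr5 was lost without WT 20-week library 1 (-0.45), mutant 20-week library 2 (-0.43) or WT 2-week library 1 (-0.46). Epc1 had 59.7, 64.8, 54.5 and 52.0 scaled CPM at 20 weeks, and its log2 difference was 0.42 ± 0.11 (adjusted p = 0.00456). With plain library totals that call was lost (0.15, adjusted p = 0.340), the median of all genes moved to -0.19 and all called genes split into 3106 higher and 5717 lower, against 4492 higher and 3703 lower with scaling.

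Set against untreated HSPCs, 20-week HSPCs had lower levels of 2 subunits and higher levels of none, where 23.6% of genes were called, 13.1% as higher and 10.6% as lower. Over the 10 subunits the median log2 difference was -0.03, against 0.02 over all genes. Brd8 was lower by 0.73 on the log2 scale (-0.73 ± 0.10, adjusted p = 6.60e-05), with every 20-week library below the 142, 170.1, 137 and 151 scaled CPM of the untreated ones. Ino80 had 45.7, 62.9, 55.0 and 63.4 scaled CPM at 20 weeks, against 78.8, 79.1, 77.2 and 76.0 in untreated HSPCs, a log2 difference of -0.42 ± 0.11 (adjusted p = 0.00897). The other 8 differed by -0.09 to 0.42, of which Ino80b had the largest value (0.42 ± 0.16, adjusted p = 0.0608). With plain library totals the median of all genes moved to -0.33, all called genes split into 844 higher and 5542 lower, against 2549 higher and 2063 lower with scaling, and 6 subunits were called lower.

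These 3 comparisons share their samples, and each condition came from its own directory of processing runs as named in the file headers, so condition and directory cannot be told apart. Sex-linked transcripts also moved with them: Xist lay between 545 and 1339 CPM in HSPCs at 2 weeks and did not exceed 0.484 CPM in untreated and 20-week HSPCs, where the Y-linked Ddx3y was at 32.6 to 117 CPM. Immunoglobulin genes and Jchain took 3.66% to 6.22% of counts in untreated HSPCs, 0.845% to 1.86% at 2 weeks and 16.9% to 26.7% at 20 weeks. The 8 plasma cell markers, of which all were detected in these HSPCs, took 0.351% to 0.693%, 0.0587% to 0.120% and 1.12% to 1.69% of counts in the same order. The part of these in the differences was not tested. With immunoglobulin genes and Jchain left out before scaling, as many subunits were called in each of the 3 comparisons. That setting changes the scaling only and leaves any RNA of such cells in the subunit counts. B-cell, red cell precursor, myeloid and stem cell markers moved too. The 8 B-cell markers took 0.0948% to 0.152% of counts in untreated, 0.0338% to 0.096% in 2-week and 0.1205% to 0.142% in 20-week HSPCs. The 8 red cell precursor markers took 0.00156% to 0.0271%, 0.0264% to 0.115% and 0.00542% to 0.0128% in the same order. The neutrophil list took 0.540% to 0.916% of counts at 2 weeks and 0.0209% to 0.0295% at 20 weeks, and Mpo, a myeloid enzyme gene of that list, had 123 to 168 CPM in untreated and 2206 to 5257 CPM in 2-week HSPCs. The 8 HSPC markers summed to 0.280% to 0.347% of counts in untreated, 0.129% to 0.175% in 2-week and 0.197% to 0.231% in 20-week HSPCs. Among them Hlf, a stem cell transcription factor gene, had 393 to 600.5 CPM in untreated, 53.7 to 61.4 in 2-week and 249.7 to 314 in 20-week HSPCs. The part of these markers was not tested either. WT untreated library 1 stood apart from its group, with 2.17% of its counts in neutrophil markers.

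**Figure D4:**
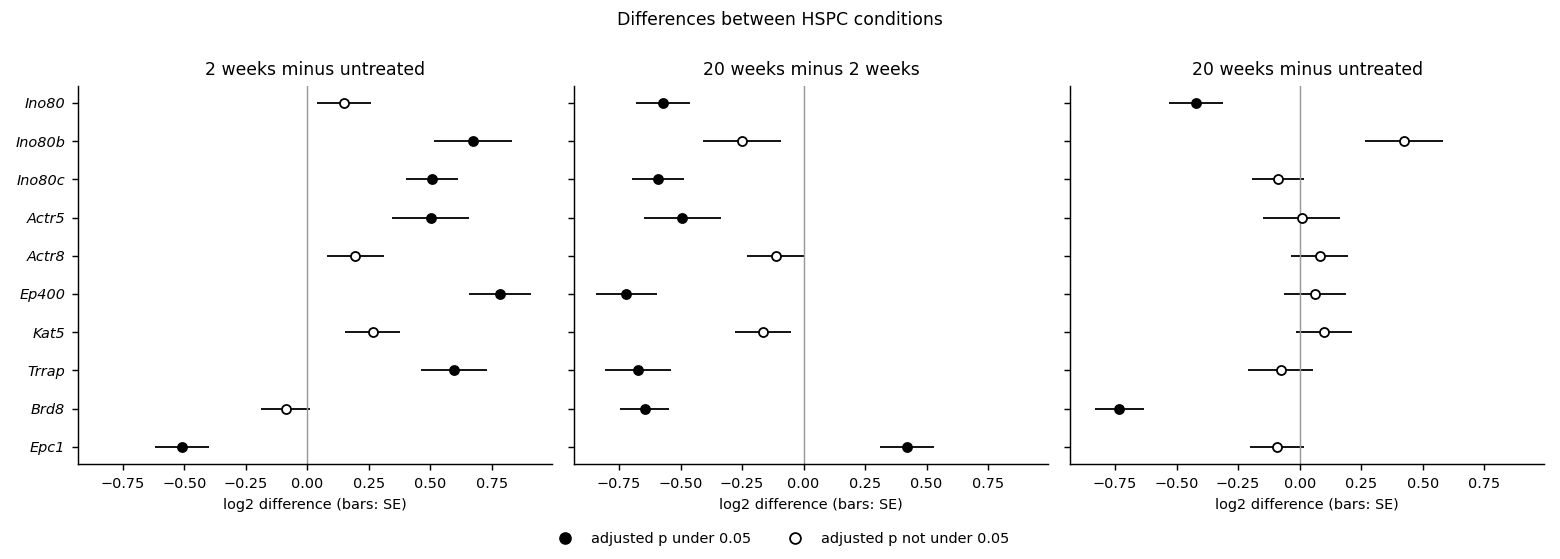
Log2 difference with its SE (x axis) for each of the 10 subunits (rows) between 2-week and untreated, 20-week and 2-week, and 20-week and untreated HSPCs, 4 libraries a side; filled points passed an adjusted p of 0.05. Ep400 and Trrap lay right of 0 at 2 weeks and left of 0 between 2 and 20 weeks, Epc1 did the reverse, and Brd8 and Ino80 were the 2 lower at 20 weeks than untreated.

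Doxorubicin was given to ask how HSPCs respond to DNA damage. At 12 hours none of the 10 subunits was called in edgeR's test, and DESeq2 called none either; 0.0154% of 19522 genes were called, and 1 of the 10 had an unadjusted p under 0.05, against 5.96% of all genes. That one was Ep400, with 235, 245, 241 and 284 scaled CPM in doxorubicin HSPCs, against 194, 212, 199.5 and 213 scaled CPM in untreated HSPCs. All 4 doxorubicin libraries lay above the untreated ones, yet the log2 difference of 0.31 ± 0.12 did not survive the adjustment (adjusted p = 0.832). Trrap differed by 0.20 ± 0.13 (adjusted p = 0.898). The other 8 were at most 0.09 away from 0, with SEs of 0.10 to 0.16. Ino80 averaged 82.2 ± 6.39 scaled CPM in doxorubicin and 77.8 ± 1.45 in untreated HSPCs (SD, n = 4 each). Within mutant HSPCs no subunit was called (0.0% of all genes, and 0 of the 10 with an unadjusted p under 0.05). Within WT HSPCs none was called either (0.00512% of all genes). There 1 of the 10 had an unadjusted p under 0.05, against 6.30% of all genes. Nor did the response differ by genotype for any of the 10 in edgeR or DESeq2 (0.0% of all genes called, 0 of the 10 with an unadjusted p under 0.05), with differences of the 2 responses from -0.24 to 0.23.

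Mutant and WT libraries were compared in each of the 6 states, to ask whether the Srcap mutation goes with other levels of these subunit transcripts. No subunit was called in any of the 6 states by edgeR or by DESeq2. The share of all genes called was 0.641% in B cells, 0.0114% under the T label, 0.0154% in doxorubicin HSPCs, 0.0% in untreated HSPCs, 0.138% in 2-week HSPCs and 0.00512% in 20-week HSPCs. Of the 10 subunits, 1 had an unadjusted p under 0.05 in doxorubicin HSPCs, 1 in 2-week HSPCs and 0 in each of the other 4 states. Over all genes that share was 9.79% in doxorubicin and 8.76% in 2-week HSPCs, so 1 of 10 is near the background. The median log2 difference of the 10 between mutant and WT was 0.12 in B cells, 0.04 under the T label, 0.02 in doxorubicin, 0.09 in untreated, -0.07 in 2-week and 0.02 in 20-week HSPCs. Over all genes that median lay between -0.02 and 0.02 in every state. Averaged over the 4 HSPC conditions the 10 lay between -0.12 and 0.10, with SEs of 0.07 to 0.11, and again none was called, where 0.133% of all genes were and 0 of the 10 had an unadjusted p under 0.05. The motors themselves differed by -0.02 ± 0.08 (Ino80) and -0.08 ± 0.09 (Ep400) in that average.

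The single largest difference was in Actr5. In 2-week HSPCs it had 17.6 and 19.6 scaled CPM in mutant libraries, against 30.5 and 28 in WT libraries, a log2 difference of -0.60 ± 0.22 (adjusted p = 0.421). The groups did not overlap, but the difference did not pass. In B cells Actr5 went the other way, with 40.3 and 40.5 scaled CPM in mutant against 32.9 and 32.9 in WT libraries (0.29 ± 0.15, adjusted p = 0.501), and in untreated HSPCs it had 18.3 and 19.5 in mutant against 11.5 and 19.8 in WT libraries (0.29 ± 0.22, adjusted p = 1). The untreated value rested on WT library 1, the one with the neutrophil markers, and was -0.04 without it and 0.71 without WT library 2. Whether the genotype difference itself varies was tested across the 4 HSPC conditions (Actr5 adjusted p = 0.685) and across the 3 cell labels at 2 weeks (Actr5 adjusted p = 0.421). Neither test called any of the 10, where 0.0% and 0.0158% of all genes were called and 1 of the 10 had an unadjusted p under 0.05 in each, against 6.73% and 6.30% of all genes. By DESeq2 the second test called Actr5 (adjusted p = 0.0328), where 0.904% of all genes were called, and the first called none of the 10, where 0.907% were. Brd8 had 159 and 178.5 scaled CPM in mutant doxorubicin HSPCs, against 133 and 128 in WT ones (0.36 ± 0.14, adjusted p = 0.411). Every other difference between mutant and WT lay between -0.38 (Ino80b under the T label, 18.5 and 14.4 scaled CPM in mutant against 19.7 and 21.3 in WT libraries) and 0.27 (Actr5 in doxorubicin HSPCs, 19.2 and 19.5 scaled CPM in mutant against 14.6 and 17.2 in WT libraries). The Ino80b value was -0.25 without WT T-label library 2, -0.14 without mutant T-label library 2 and -0.50 without mutant T-label library 1.

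**Figure D5:**
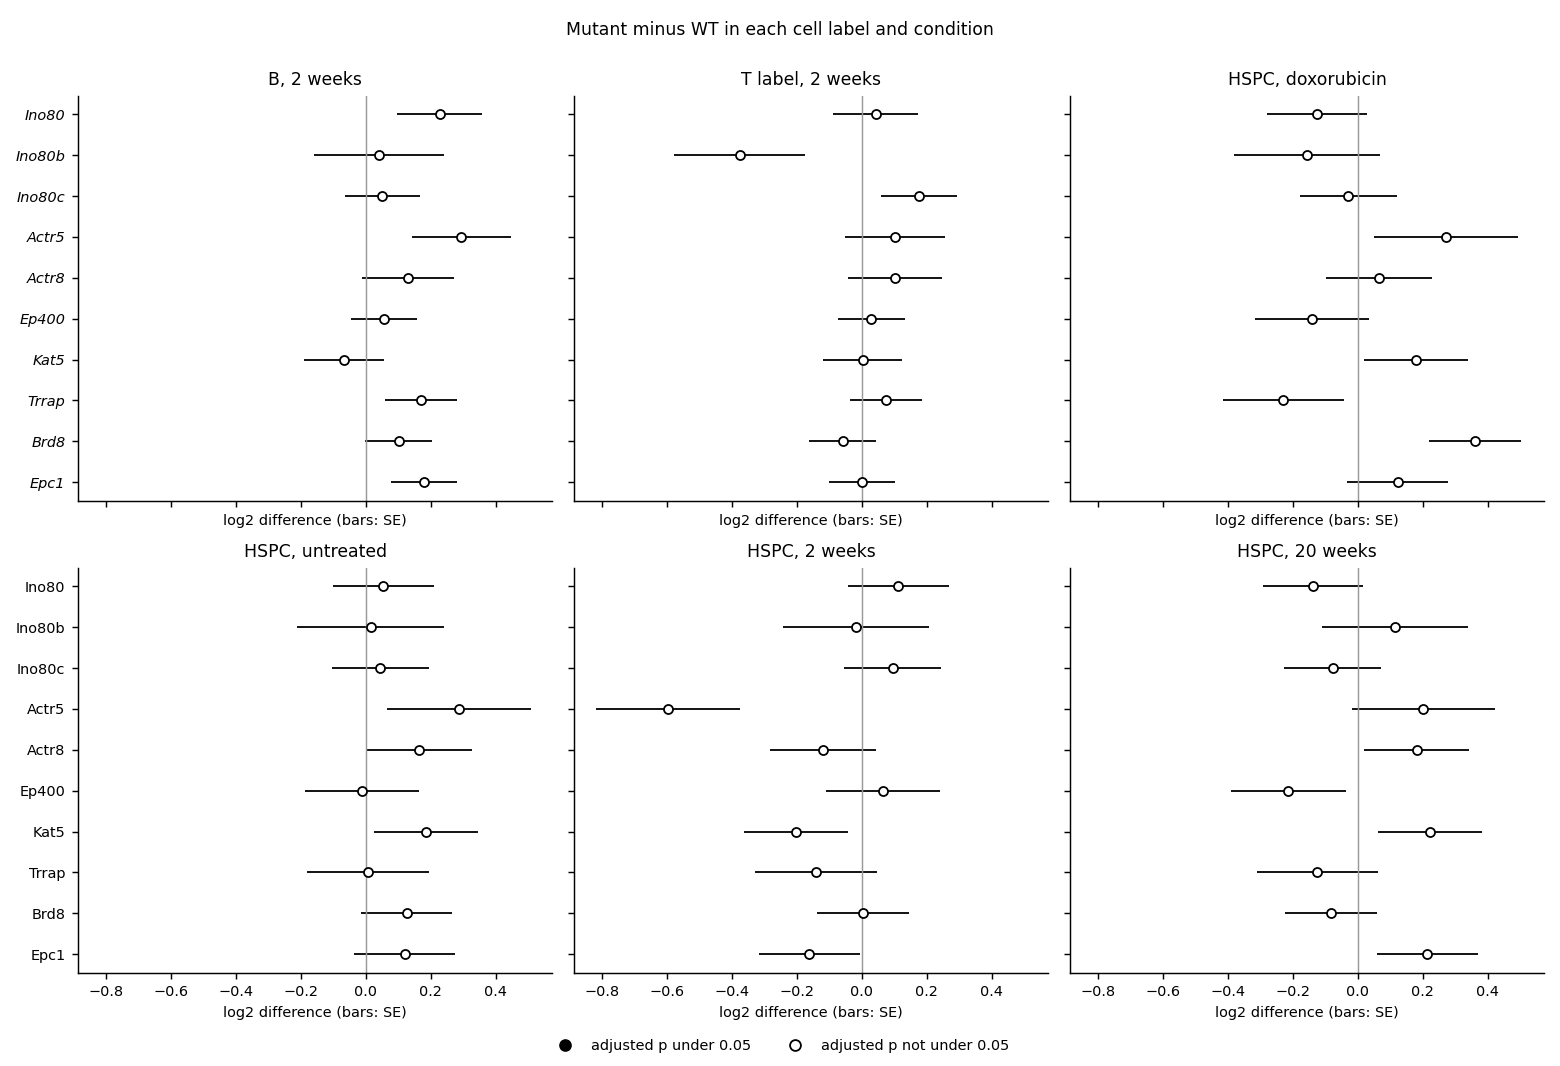
Log2 difference between mutant and WT with its SE (x axis) for each of the 10 subunits (rows), in 6 panels for B cells, the T label and 4 HSPC conditions, 2 mutant against 2 WT libraries each. No point passed an adjusted p of 0.05, so all are open; Actr5 in 2-week HSPCs lay farthest from 0, at -0.60.

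The other subunits of these complexes were described from a list of 21: 7 of INO80, 10 of TIP60-p400, and 4 that both hold. In B cells against HSPCs 8 of the 21 were higher and 6 lower, where 28.3% and 25.5% of all genes were, and the median was 0.08. Ruvbl1 and Ruvbl2, the paired AAA+ ATPases that form the core of both complexes, were among the lower ones, with log2 differences of -1.48 ± 0.12 (adjusted p = 1.42e-07) and -1.53 ± 0.14 (3.84e-07). So were Morf4l2, a relative of the chromodomain protein MRG15 (-0.94 ± 0.09), and Uchl5, a deubiquitinase bound to INO80 (-1.20 ± 0.14), while Nfrkb, which binds Uchl5 in INO80, was higher by 1.18 ± 0.10 (1.28e-07). Under the T label against HSPCs 4 were higher and 9 lower, where 32.6% and 29.3% of all genes were, with a median of -0.11. Ruvbl1 had 17.0, 16.8, 18.3 and 17.0 scaled CPM under the T label, against 123, 89.5, 97.0 and 106 scaled CPM in HSPCs. The log2 difference was -2.57 ± 0.13 (adjusted p = 3.22e-10), with -1.95 ± 0.14 for Ruvbl2 (1.89e-08) and -1.28 ± 0.10 for Actl6a, the actin-related subunit BAF53a (2.50e-08). Actb, the actin gene whose protein is also a subunit, was higher by 2.64 ± 0.10 (2.58e-11). With plain library totals these 4 were -3.41, -2.79, -2.12 and 1.80. Of the other 3 called higher, Ino80d was 0.96, and 0.12 with plain totals, while Epc2 (0.64, and -0.20) and Ing3 (0.70, and -0.14) changed sign. B cells against the T label had 11 higher and 4 lower, where 31.2% and 28.8% of all genes were. With plain totals 3 of the 4 lower ones changed sign, namely Ino80d (-0.32, and 0.39), Uchl5 (-0.42, and 0.28) and Yy1 (-0.30, and 0.40), and Actb did not (-2.06, and -1.36).

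Among HSPCs at 2 weeks against untreated, 9 of the 21 were higher and 4 lower, where 21.2% and 24.9% of all genes were, with Ruvbl2 at 66.5, 69.6, 71.8 and 63.2 scaled CPM in untreated and 140.5, 202, 207 and 187 scaled CPM in 2-week HSPCs. Its log2 difference was 1.499 ± 0.14 (adjusted p = 9.35e-08), that of Ruvbl1 1.07 ± 0.11 (4.69e-07) and that of Actl6a 0.63 ± 0.10 (2.80e-05). Ino80e (0.91 ± 0.11) and Dmap1, a subunit shared with SRCAP (0.96 ± 0.13), were higher as well. Actb, also shared, differed by 0.26 and did not pass. Between 2 and 20 weeks none was higher and 10 were lower, where 23.0% and 19.0% of all genes were, Ruvbl2 by 1.01 (-1.01 ± 0.14, adjusted p = 9.71e-06) and Ruvbl1 by 0.69 (-0.69 ± 0.11, 6.98e-05). At 20 weeks against untreated, where 13.1% of all genes were higher and 10.6% lower, 2 were higher, Ruvbl2 (0.49 ± 0.14, and 0.12 with plain library totals) and Ruvbl1 (0.37 ± 0.11, and 0.02), and 5 were lower, Ino80d (-0.81 ± 0.13), Mbtd1 (-0.60 ± 0.11), Mrgbp (-0.55 ± 0.13), Nfrkb (-0.38 ± 0.10) and Epc2 (-0.36 ± 0.11). Between mutant and WT none of the 21 was called in any of the 6 states by edgeR, and 0 to 2 had an unadjusted p under 0.05 in each. For doxorubicin, averaged over the genotypes, 0 of the 21 were called, where 0.0154% of all genes were. An unadjusted p under 0.05 was found for 1 of them, against 5.96% of all genes.

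The list of H2A.Z genes and its handling elsewhere held 5 genes, Srcap, Znhit1, H2az1, H2az2 and Anp32e. In B cells against HSPCs 2 were higher and 1 lower, where 28.3% and 25.5% of all genes were. Under the T label against HSPCs 2 were higher and 1 lower (32.6% and 29.3%). B cells against the T label had 3 higher and 2 lower (31.2% and 28.8%). Znhit1 encodes a subunit of the SRCAP complex. Its log2 difference was 1.49 ± 0.12, and 0.65 with plain library totals, under the T label against HSPCs (adjusted p = 5.24e-08), -0.62 ± 0.12 in B cells against HSPCs (0.000444) and 1.26 ± 0.15 in 2-week against untreated HSPCs (1.42e-06). The H2A.Z gene H2az2 was higher in B cells than in HSPCs by 0.99 ± 0.10 (9.66e-07). Anp32e, a chaperone that removes H2A.Z, was lower under the T label than in HSPCs by 0.87 on the log2 scale (-0.87 ± 0.12, adjusted p = 1.48e-05). None of the 5 was called between mutant and WT in any of the 6 states.

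The genes whose pattern was most like that of the motors were looked up among 9497 well-expressed genes, by the root mean square difference of centred log2 levels over the 12 group means. For Ino80 they were Taf2 (0.0869), Dicer1 (0.0876) and Senp1 (0.0917), and for Ep400 they were Htt (0.0911), Mta2 (0.0944) and Pcnt (0.104). Ep400 was the nearest of the other 9 subunits to Ino80, at 0.232. Ino80c was the nearest to Ep400, at 0.220. The median over all genes was 0.585 from Ino80 and 0.574 from Ep400, and Epc1 (0.553) and Kat5 (0.509) lay close to that median from Ep400. The 12 groups share cell labels and libraries of one scaling, so these values describe the order only.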

How the data were processed

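Polyadenylated RNA was sequenced from 24 libraries in 12 groups of 2, taken from the labels. The authors deposited counts of read pairs per gene, 1 file a library; per the file headers, featureCounts 2.0.1 counted reverse-stranded pairs over exons of the GENCODE M28 annotation. FastQC, STAR and Subread appear in the submitters' processing notes with no version given, as do both the mm10 and mm39 builds; coordinates printed from the files are those of the annotation. Of 55414 gene IDs, 52081 matched a symbol and held 99.85% of counts. Library totals were 26369992 to 78432483, and their size limits only counting error.

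The counts were tested with edgeR 4.0.16 (limma 3.58.1, R 4.3.3): TMM scaling, filterByExpr (minimum count 10, minimum total 15), robust quasi-likelihood fits with 1 mean per group, and Benjamini-Hochberg adjustment over all genes at 0.05. HSPC comparisons used all 16 HSPC libraries (19522 genes), B cells and the T label 8 libraries (17484 genes), and comparisons of cell labels the 12 2-week libraries (19018 genes), 19 comparisons in all. The scripts were tested on simulated counts. Tables and figures were made with Python 3.11.15, pandas 2.3.3, numpy 2.4.6 and matplotlib 3.10.9.

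The 10 members and all lists were chosen with earlier results of these data known. The 10 are named throughout; other list genes only where called, at most 6 a comparison, by smallest adjusted p. Genes and values that fall outside this rule, namely some of the other subunits and H2A.Z genes, were chosen after their values were seen. The plan gave levels as plain CPM with TMM-scaled CPM as an alternative. After the data were seen the 2 were exchanged, so that levels and tests share a kind of scaling. The factors themselves differ, being computed over all 24 libraries for levels and within each fit for tests. Of 60 state means of the 10 members, 40 differed between these scales by more than 1 SD of the 4 libraries, and 0 between TMM and RLE factors. The genes most like Ino80 and Ep400 were ranked on log2 CPM over the 12 group means, among genes with a mean of at least 3.

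Alternatives were DESeq2 1.42.0, RLE factors, the compared groups alone, no count filter, a replicate block, each library left out in turn, immunoglobulin genes and Jchain (394 genes) left out before scaling, and plain library totals in the tests, the last chosen after seeing the data. In 6 libraries the replicate number in the file header differs from the label; the label was used.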

Additional observations from a re-analysis of the deposited data

How the results depend on the processing

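No alternative called any of the 10 subunits in a comparison of mutant with WT or of doxorubicin with untreated HSPCs. Between the T label and HSPCs, 7 were called with RLE factors and 6 with the compared groups alone, without a count filter or without immunoglobulin genes, in place of 8. Between B cells and the T label DESeq2 and RLE factors called 5 in place of 7, and between 20-week and untreated HSPCs DESeq2 called 3 in place of 2. Plain library totals in the tests were chosen after seeing the data. Under it Brd8 (-0.20), Actr8 (-0.47), Actr5 (-0.50) and Trrap (-0.59) reversed between the T label and HSPCs, Kat5 (0.08) and Trrap (0.45) reversed between B cells and the T label, and 6 of the 10 subunits in place of 2 were called between 20-week and untreated HSPCs. DESeq2 called 1 of the 10 for genotype by cell label (Actr5) in place of 0. Leaving out single libraries gave 5 to 8 subunits called between the T label and HSPCs, and -0.04 to 0.71 for Actr5 between mutant and WT untreated HSPCs, where the lowest value is reversed. For DESeq2, RLE factors, the compared groups alone, no count filter and no immunoglobulin genes, these counts are not set against all genes called under the same setting. That applies to comparisons between cell labels or with transplanted HSPCs, and there to the replicate block below and the libraries left out. Whether the subunits moved apart from the other genes is therefore not shown. The causes were not tested.

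To look for pairing, libraries were matched by the replicate number of the label. Deviations of same-numbered mutant and WT libraries correlated at -0.11 (2-week HSPCs) to 0.13 (untreated HSPCs). Over all pairs of groups the correlation ran from -0.21 (untreated with 2-week WT HSPCs) to 0.22 (untreated WT HSPCs with mutant B cells). In 6 libraries the number in the file header differs from the label, and pairing by header number was not tested. Whether libraries shared a mouse was not tested either. With the replicate block, 6 subunits were called between 2-week and untreated HSPCs, 2 between 20-week and untreated, 7 between 20-week and 2-week, 7 between B cells and the T label, 6 between B cells and HSPCs, 8 between the T label and HSPCs and 0 in every genotype and doxorubicin comparison, as without it.

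Counts over all genes moved more. Between mutant and WT, DESeq2 called 152 in untreated (edgeR 0), 282 in doxorubicin (3), 261 in 2-week (27) and 20 in 20-week HSPCs (1), 324 in their mean (26), 337 in B cells (112) and 24 under the T label (2). Without a count filter the counts were 467, 474, 399, 149, 618, 590 and 145 in the same order. With the compared groups alone they were 256 in doxorubicin, 2 in 2-week and 4 in 20-week HSPCs, 3 in B cells and 0 under the T label. The block gave 16 in 2-week and 2 in 20-week HSPCs, 13 in the mean, 284 in B cells and 101 under the T label. RLE factors gave 1 under the T label, plain totals 17 in the mean, and leaving out immunoglobulin genes 7 in doxorubicin HSPCs. Leaving out 1 library gave 0 to 250 in untreated, 0 to 2 in doxorubicin, 11 to 672 in 2-week and 0 to 302 in 20-week HSPCs, 3 to 316 in the mean, 39 to 517 in B cells and 1 to 11 under the T label. It gave 0 to 134 for genotype by condition, 1 to 187 for genotype by cell label, and 1 to 139 for doxorubicin in the mean, 0 to 225 in WT, 0 to 2 in mutant HSPCs and 0 to 89 for the difference of responses. For doxorubicin against untreated, DESeq2, the compared groups alone and no filter called 99, 19 and 421 in the mean (3), 178, 7 and 500 in WT (1), 8, 14 and 177 in mutant HSPCs (0), and 5, 1 and 337 for the difference of responses (0). Without immunoglobulin genes 1 was called in mutant HSPCs. DESeq2 and no filter called 177 and 847 for genotype by condition (0), and 172 and 679 for genotype by cell label (3), where 1 was called without immunoglobulin genes. With 2 libraries a group, small differences could not be resolved.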
